A study of Homo sapiens with 28 samples.

Results

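Interferon response genes are the genes that cells switch on after interferon binds its receptors at the cell surface. Type I and type III interferons activate the kinases JAK1 and TYK2, which phosphorylate STAT proteins. STAT2 and IRF9 are parts of the resulting factor ISGF3, which binds a DNA motif called the interferon-stimulated response element. Many of these genes keep a basal level in epithelia such as the esophageal lining without added interferon, and their products sense viral RNA, block virus entry and replication, and tag proteins with ISG15.

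A set of 44 such genes was followed, chosen by gene symbol from a list of known members. The choice was made with earlier results of these data known. All 44 were found among the 23533 genes of the RNA tables. The cells were EPC2, a human esophageal epithelial cell line, the only line used. They were given IL-13 at 100 ng/ml plus vitamin D at 100 nM (here "both"), IL-13 alone, vitamin D alone, or no treatment, for 6 h. The cytokine IL-13, known from allergic inflammation, works mainly by activating STAT6, and vitamin D by binding VDR, a nuclear receptor. The labels name no interferon treatment in any group. RNA sequencing covered 12 samples, 3 for each group, and ChIP-seq covered 16 samples, 1 for each condition: H3K4me3, H3K9ac and H3K27ac in the 4 treatments, STAT6 with IL-13 and untreated, and VDR with vitamin D and untreated.

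The RNA tables give 1 RPKM value per group (reads scaled to gene length and to the library's total), so the spread between the 3 samples cannot be shown and read depth is unknown. The labels do not say whether the 3 samples were separate cultures, so the deposited p-values may measure technical spread only. A gene is called here when its adjusted p is under 0.05. Of 8 squamous epithelial markers 7 reached 1 RPKM in every group, and EPCAM stayed under 1 RPKM. The 8 genes summed to 31494 RPKM with both, 35791 with IL-13, 31345 with vitamin D and 34355 untreated. KRT6A, KRT5 and KRT14 made up most of each sum. Single markers moved within it: KRT4 was at 293, 63.8, 242 and 64.3 RPKM in that order, and KRT13 at 114, 96.7, 254 and 201 RPKM. Of 11 leukocyte markers, 8 were under 0.1 RPKM in all groups; CD14, a receptor that myeloid cells share with some epithelia, was at 216 RPKM with both, 3.67 with IL-13, 132 with vitamin D and 2.62 untreated. CD68, a lysosomal protein, was at 56.4, 48.1, 60.5 and 50.8 RPKM in that order, and the myeloid integrin ITGAM at 0.149, 0.0296, 0.105 and 0.0349 RPKM. ITGAM rose with both (log2 1.27 in the authors' deposited table, adjusted p = 2.05e-05). Of 8 fibroblast markers 6 were under 0.1 RPKM in all groups, with COL1A1 at 5.84, 9.84, 9.64 and 15.2 RPKM in the same order of groups. The 6 endothelial markers summed to 3.92, 2.14, 1.31 and 0.573 RPKM in that order. VWF made up most of each sum, at 3.15, 1.92, 1.18 and 0.514 RPKM, and CLDN5 reached 0.726 RPKM with both. PECAM1, CDH5, KDR and TEK were under 0.1 RPKM in all groups. The part of these markers in the results was not tested. In bulk RNA, fewer cells expressing a gene and less RNA per cell cannot be told apart.

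All 44 genes reached 1 RPKM in every group, against 47.4% to 47.8% of all genes. Their median level was 15.7 RPKM with both, 18.5 with IL-13, 16.2 with vitamin D and 16.7 untreated. Together they held 0.435% of the summed RPKM with both, 0.473% with IL-13, 0.472% with vitamin D and 0.485% untreated. In each group 6 genes were above 100 RPKM. These were IFITM3 (299.7 RPKM untreated), which blocks fusion of viral and endosomal membranes, the small membrane proteins IFI6 (277) and IFI27 (190), IFITM1 (173), the ubiquitin-like modifier ISG15 (143) and the secreted glycoprotein LGALS3BP (125). At the other end CMPK2, a nucleotide kinase encoded next to RSAD2, had 1.06 RPKM with both, 1.28 with IL-13, 1.40 with vitamin D and 1.33 untreated. The cells treated with both had the lowest level of the 4 groups for 25 genes, vitamin D for 16, IL-13 for 2 and untreated cells for 1. The highest level was in IL-13 cells for 19 genes, in untreated cells for 14, in vitamin D cells for 9 and in both for 2.

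**Figure D1:**
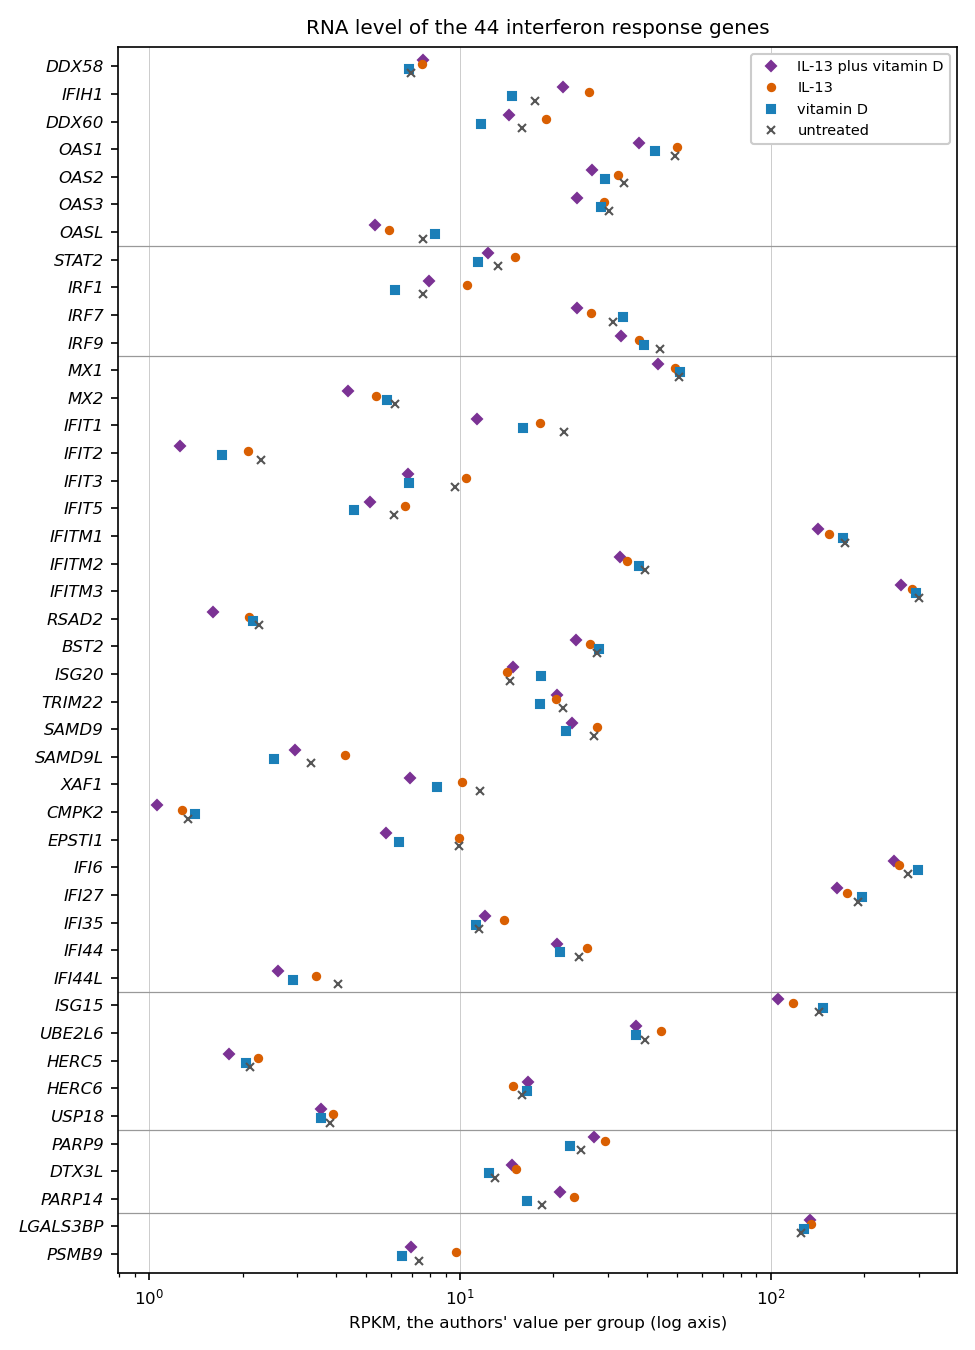
RPKM of the 44 genes on a log axis, 1 point per gene and group (diamonds, IL-13 plus vitamin D; circles, IL-13; squares, vitamin D; crosses, untreated); lines separate sensors, transcription factors, antiviral effectors, the ISG15 pathway, the PARP9 complex and 2 others. The diamonds are the leftmost points for 25 of the 44 genes, and the levels run from about 1 RPKM for CMPK2 to 299.7 RPKM for IFITM3.

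The first comparison asks how the genes stood when both agents were present, against untreated cells. In the authors' deposited table, 25 of the 44 genes fell and 4 rose, while 31.7% of all 15971 genes tested were called in either direction and 15.7% were called lower. The median log2 fold change of the 44 was -0.22, beside 0.00 over all genes tested, and 34 of the 44 values were negative. All 44 genes are expressed, and among genes at 1 RPKM or more in a group 39.1% were called. The share called lower among the called genes was 86.2% for the 44 and 49.7% for all genes.

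The antiviral effectors held most of the decrease: 18 of 23 fell and none rose. IFIT1, which binds viral RNA lacking a methylated cap, had 11.4 RPKM with both, 18.0 with IL-13, 16.0 with vitamin D and 21.6 untreated. It was lowest with both agents, and the level with either agent alone lay between that and untreated. Its log2 fold change with both against untreated was -0.91 in the authors' deposited table, a 1.88-fold decrease (adjusted p = 2.52e-44) and the largest of the 44. Its neighbour IFIT2, which also binds viral RNA, was near the low end, with 1.26 RPKM with both, 2.09 with IL-13, 1.71 with vitamin D and 2.30 untreated. IFIT2 fell by 0.82 (log2) in the authors' deposited table (adjusted p = 1.82e-13). IFIT3, which stabilises IFIT1, had 6.81 RPKM with both, 10.4 with IL-13, 6.88 with vitamin D and 9.63 untreated. For IFIT3 the level with both was about that with vitamin D alone, and the log2 fold change against untreated was -0.49 in the authors' deposited table (adjusted p = 3.69e-11).

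EPSTI1, named for its induction in epithelial and stromal co-culture, had 5.77 RPKM with both, 9.92 with IL-13, 6.38 with vitamin D and 9.97 untreated. The 2 groups with vitamin D were low and the 2 without it were high; the log2 fold change with both was -0.77 in the authors' deposited table (adjusted p = 3.59e-34). XAF1, which counters an inhibitor of apoptosis, had 6.94 RPKM with both, 10.1 with IL-13, 8.45 with vitamin D and 11.6 untreated. XAF1 fell by 0.73 (log2) in the authors' deposited table (adjusted p = 3.01e-33). IFI44L had 2.61 RPKM with both, 3.45 with IL-13, 2.91 with vitamin D and 4.05 untreated, a log2 fold change of -0.62 in the authors' deposited table (adjusted p = 1.82e-16). In XAF1 and IFI44L, as in IFIT1 and IFIT2, all treated groups were below untreated cells and both was the lowest.

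MX2, a dynamin-like GTPase that restricts HIV, had 4.37 RPKM with both against 6.17 untreated (log2 -0.49 in the authors' deposited table, adjusted p = 8.13e-11). RSAD2, or viperin, which makes a chain-terminating nucleotide, had 1.61 RPKM with both against 2.25 untreated (log2 -0.46 in the authors' deposited table, adjusted p = 0.000372). The other effectors that fell did so by 0.15 to 0.27 on the log2 scale. They were the GTPase MX1, the RNA-binding IFIT5, the membrane proteins IFITM1, IFITM2 and IFITM3, the tether BST2, SAMD9, IFI6, IFI27 and IFI44. The 3 IFITM genes are near-identical in sequence, and reads that match more than one of them may have been split in the authors' counting. The 5 effectors not called were the exonuclease ISG20, the ubiquitin ligase TRIM22, SAMD9L, CMPK2 and IFI35, with log2 values of 0.04, -0.06, -0.16, -0.24 and 0.07 in the authors' deposited table.

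**Figure D2:**
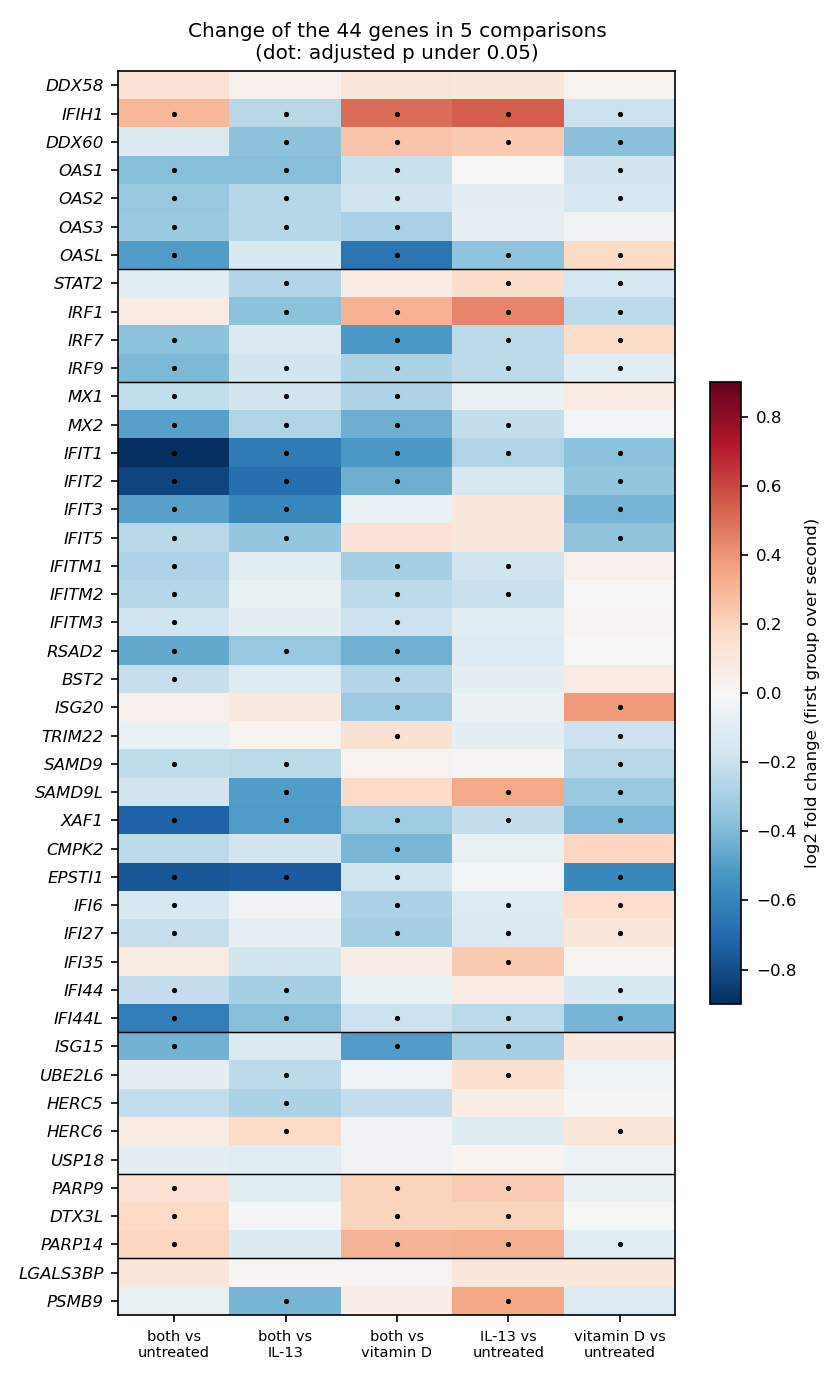
Log2 fold change of the 44 genes in 5 comparisons (columns; first-named group over second; red higher, blue lower), with a dot where the adjusted p was under 0.05. Blue runs through most of the antiviral effectors in the 3 columns for both, IFIT1 reaching -0.91, and the 3 genes of the PARP9 complex are red with both and with IL-13.

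Promoters of genes that fell with both and hold a motif searched are shown, because ISGF3 is known to act through a motif in such windows. Sequences of 250 bases before to 50 after the transcription start were taken from RefSeq (GRCh38.p14), where 36 of the 44 genes were matched, 1 of them (DDX58) by its newer name. Each was searched on both strands for the core of the response element, which is GAAA, any 2 bases, and GAAA again (TTTC on the opposite strand). The 6 genes printed are those with the largest called change with both that hold a motif searched. They are not the 6 largest falls. XAF1 held none of the motifs searched, and IFIT2, OASL and MX2 had no matched window. Capitals mark the response element, with 30 bases on either side, and for IFIT1 the whole 250 bases before the start:
IFIT1, chr10:89392373-89392622, plus strand: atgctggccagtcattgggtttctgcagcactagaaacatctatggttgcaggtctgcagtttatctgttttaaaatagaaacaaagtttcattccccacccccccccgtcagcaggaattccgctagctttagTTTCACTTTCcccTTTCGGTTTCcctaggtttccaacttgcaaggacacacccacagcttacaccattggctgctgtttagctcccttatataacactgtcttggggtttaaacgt
EPSTI1, chr13:42992252-42992321, minus strand: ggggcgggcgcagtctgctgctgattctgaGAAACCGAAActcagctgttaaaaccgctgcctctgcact
IFI44L, chr1:78620254-78620414, plus strand: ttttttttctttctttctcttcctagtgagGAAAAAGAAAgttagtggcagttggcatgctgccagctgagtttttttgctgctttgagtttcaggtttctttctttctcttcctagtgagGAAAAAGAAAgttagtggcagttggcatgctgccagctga
IFIT3, chr10:89327811-89327914, plus strand: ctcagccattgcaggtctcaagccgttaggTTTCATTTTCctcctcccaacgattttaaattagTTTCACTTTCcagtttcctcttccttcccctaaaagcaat
RSAD2, chr2:6877602-6877671, plus strand: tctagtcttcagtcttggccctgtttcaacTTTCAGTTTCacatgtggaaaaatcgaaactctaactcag
ISG15, chr1:1013354-1013429, plus strand: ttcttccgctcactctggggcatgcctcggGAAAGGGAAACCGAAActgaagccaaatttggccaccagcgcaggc

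In IFIT1 the 2 elements lie within bases -116 to -94 of the start, separated by 3 bases. IFIT3 also holds 2, in bases -156 to -113. IFI44L holds 2 copies of the same 10 letters in bases -164 to -64. In ISG15 overlapping matches merge into 1 stretch of 16 bases, from -113 to -98. EPSTI1 holds 1, and RSAD2 holds 1 in 1 of its 2 windows.

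The response element was found in the promoter windows of 24 of the 36 genes (66.7%), against 4.38% of all 27305 genes with a window. The gamma-activated site TTCNNNGAA, named for interferon gamma, was found in 11 of the 36 (30.6%), against 9.38% of all genes. TTC and GAA with 4 bases between them, the wider spacing that STAT6 prefers, was in 4 of the 36 (DDX58, OAS1, IFIT3 and IFI27; 11.1%), against 7.80%. A direct repeat of GNTCA with 4 bases between the copies, which covers the VDR element, was found for 0 of the 36 genes, against 0.791% of all genes. Motifs were searched independently, so matches may overlap. A match to these letters is a description of the window, not a binding site. With both against untreated, 16 of the 24 genes with a response element fell and 4 rose (median log2 -0.22), and 3 of the 12 without one fell and 0 rose (median -0.10). With vitamin D alone, 10 of the 24 with the element fell and 3 rose (median -0.02), and 6 of the 12 without it fell and 1 rose (median -0.11). With IL-13 alone, 6 of the 24 fell and 5 rose (median -0.04), and 2 of the 12 fell and 6 rose (median 0.12). Genes with and without the element were not compared by a test.

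Among the RNA sensors, 4 of 7 fell with both and 1 rose. OASL, an OAS relative that makes no 2-5A and strengthens RIG-I signalling, had 5.32 RPKM with both, 5.90 with IL-13, 8.29 with vitamin D and 7.59 untreated. Its log2 fold change with both was -0.50 in the authors' deposited table (adjusted p = 3.77e-09). OAS1, OAS2 and OAS3 make the 2-5A that activates RNase L, and all 3 fell, by 0.38, 0.34 and 0.33 (log2) in the authors' deposited table. OAS1 stood at 37.6 RPKM with both, 50.001 with IL-13, 42.3 with vitamin D and 49.2 untreated. IFIH1 (MDA5), a sensor of long double-stranded RNA, went the other way, with 21.5 RPKM with both, 26.0 with IL-13, 14.7 with vitamin D and 17.5 untreated. IFIH1 was above untreated cells in both groups with IL-13, and its log2 fold change with both was 0.30 in the authors' deposited table (adjusted p = 4.82e-09). DDX58 (RIG-I) and DDX60, a helicase linked to it, were not called, at log2 0.13 and -0.13.

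Of the transcription factors, IRF9 and IRF7 fell with both, and STAT2 and IRF1 were not called. IRF9, the DNA-binding subunit of ISGF3, had 33.0 RPKM with both, 37.6 with IL-13, 39.2 with vitamin D and 43.9 untreated (log2 -0.40 with both against untreated in the authors' deposited table, adjusted p = 7.87e-16). IRF7, which drives interferon genes, had 23.8 RPKM with both, 26.5 with IL-13, 33.5 with vitamin D and 31.1 untreated (log2 -0.37 in the authors' deposited table, adjusted p = 1.85e-06). IRF7 was low in the 2 groups with IL-13, while IRF9 was below untreated cells in all 3.

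In the ISG15 pathway only ISG15 was called with both against untreated. It had 106 RPKM with both, 118 with IL-13, 147 with vitamin D and 143 untreated, so the 2 groups with IL-13 were below the other 2 (log2 -0.43 in the authors' deposited table, adjusted p = 3.72e-10). The conjugating enzyme UBE2L6, the ligase HERC5, its relative HERC6 and the protease USP18, which removes ISG15, had log2 values of -0.09, -0.22, 0.07 and -0.09 in the authors' deposited table and were not called. USP18 shares near-identical sequence with USP41, so its level is uncertain. The PARP9 complex moved the other way: PARP14, DTX3L and PARP9 all rose with both, by 0.19, 0.18 and 0.13 (log2) in the authors' deposited table. DTX3L is a ubiquitin ligase that pairs with PARP9, and PARP14 is an ADP-ribosyltransferase also known as a STAT6 cofactor. PARP9 and DTX3L are neighbours transcribed away from each other. LGALS3BP and the immunoproteasome subunit PSMB9 were not called, at log2 0.10 and -0.07.

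IL-13 alone split the genes, with 11 rising and 12 falling against untreated cells in the authors' deposited table, where 26.3% of all 15172 genes tested were called. Among genes at 1 RPKM or more in a group 31.9% were called. The median of the 44 was -0.05, beside 0.00 over all genes tested. IFIH1 led the rises at log2 0.55 in the authors' deposited table (adjusted p = 6.49e-35). IRF1, a transcription factor that itself activates interferon response genes, had 10.5 RPKM with IL-13 against 7.60 untreated, a rise of 0.44 (log2) in the authors' deposited table (adjusted p = 5.89e-14). PSMB9 (0.35), SAMD9L (0.34), PARP14 (0.32), IFI35 (0.24), DDX60 (0.24), PARP9 (0.23), DTX3L (0.20), STAT2 (0.16) and UBE2L6 (0.15) made up the other rises, as log2 fold changes of the authors' deposited table. The 3 genes of the PARP9 complex thus all rose with IL-13.

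The decreases with IL-13 were led by OASL at -0.37, ISG15 at -0.30, IFIT1 at -0.27, and IFI44L, IRF7 and IRF9 at -0.24 each, as log2 fold changes of the authors' deposited table. The other 6, XAF1, MX2, IFITM2, IFITM1, IFI27 and IFI6, fell by 0.12 to 0.22 on that scale. Of the 23 effectors 8 fell and 2 rose (SAMD9L and IFI35), and of the 4 transcription factors IRF1 and STAT2 rose while IRF7 and IRF9 fell.

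Vitamin D alone lowered 19 genes and raised 6 against untreated cells in the authors' deposited table, where 32.5% of all 15177 genes tested were called and 15.1% were called lower. Among genes at 1 RPKM or more in a group 39.2% were called. With fold changes shifted to the scale of the RPKM columns, 21 of the 44 genes were lower and 2 higher (OASL, IRF7, IFI27 and HERC6 no longer passing). The median of the 44 was -0.04, beside 0.00 over all genes tested, and -0.091 to -0.11 from RPKM ratios with either pseudocount or the same sum. EPSTI1 fell most, by 0.58 (log2) in the authors' deposited table (adjusted p = 2.45e-24). IFIT3 (-0.42), IFI44L (-0.42), XAF1 (-0.40), DDX60 (-0.38), IFIT1 (-0.37), IFIT5 (-0.37), IFIT2 (-0.35), SAMD9L (-0.34), SAMD9 (-0.25) and IRF1 (-0.23) followed, as log2 fold changes of the authors' deposited table. All 4 IFIT genes therefore fell with vitamin D. The remaining 8, IFIH1, TRIM22, OAS1, STAT2, OAS2, IFI44, IRF9 and PARP14, fell by 0.10 to 0.19.

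ISG20, an exonuclease that degrades single-stranded RNA, rose most with vitamin D. It had 18.3 RPKM with vitamin D against 14.5 untreated (log2 0.39 in the authors' deposited table, adjusted p = 3.26e-07), and 14.8 with both and 14.2 with IL-13. Only the vitamin D group was high. OASL (0.18), IRF7 (0.17), IFI6 (0.15), HERC6 (0.11) and IFI27 (0.10) were the other rises, as log2 fold changes of the authors' deposited table.

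The responses to each agent alone sort the 44 genes; the 2 comparisons share the untreated samples. IRF9, IFIT1, XAF1 and IFI44L fell with each agent. Against untreated cells, 6 genes rose with IL-13 but fell with vitamin D (IFIH1, DDX60, STAT2, IRF1, SAMD9L and PARP14). OASL, IRF7, IFI6 and IFI27 did the reverse, falling with IL-13 and rising with vitamin D, each against untreated cells. On the scale of the RPKM columns the vitamin D rises of OASL, IRF7 and IFI27 no longer passed, nor did that of HERC6. Of the rest, 9 fell with vitamin D alone (OAS1, OAS2, IFIT2, IFIT3, IFIT5, TRIM22, SAMD9, EPSTI1 and IFI44), 4 fell with IL-13 alone (MX2, IFITM1, IFITM2 and ISG15), and 5 rose with IL-13 alone (IFI35, UBE2L6, PARP9, DTX3L and PSMB9). ISG20 and HERC6 rose with vitamin D only, in the sense that IL-13 gave no call. Neither agent gave a call for 10 genes, and 5 of these (OAS3, MX1, IFITM3, RSAD2 and BST2) fell with both against untreated. Over all deposited comparisons, 40 of the 44 genes had at least 1 call, against 64.3% of genes at 1 RPKM or more in a group, and 10 had a call in each, against 10.4%. The median standard error derived from the deposited p-values was 0.051 to 0.063 (log2) per comparison for the 44. It was 0.059 to 0.067 for genes at 1 RPKM or more in a group. The part of error size in these counts was not tested.

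Adding vitamin D to IL-13 was followed by comparing both with IL-13 alone. This comparison was derived from the deposited fold changes and p-values and tested gene by gene with a z test, with Benjamini-Hochberg adjustment over 14734 genes; its errors and p-values are approximations. Of the 44 genes 24 fell and HERC6 alone rose, while 24.1% of all genes tested were called and 11.9% were called lower. Among genes at 1 RPKM or more in a group 28.0% were called. The median of the 44 was -0.20, beside -0.01 over all genes tested. EPSTI1 had the largest fall, -0.75 (adjusted p = 1.57e-28, z test on errors derived from the authors' deposited tables). IFIT2 (-0.68), IFIT1 (-0.64), IFIT3 (-0.59), XAF1 (-0.51), SAMD9L (-0.50), PSMB9 (-0.42), OAS1 (-0.38), IFI44L (-0.38), DDX60 (-0.37), IRF1 (-0.37) and IFIT5 (-0.35) followed on the same log2 scale. The other 12 that fell ranged from -0.17 to -0.34. SAMD9L, PSMB9, DDX60 and IRF1 are genes that IL-13 alone raised. HERC6 rose by 0.18 (adjusted p = 0.00776, z test on errors derived from the authors' deposited tables), a call lost with the variance taken as the sum of 2 tables. The same alternative ended the falls of IRF9, RSAD2 and HERC5, leaving 21 lower.

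Adding IL-13 to vitamin D was compared in the authors' deposited table of both against vitamin D. There 23 of the 44 genes fell and 7 rose, with 33.2% of all 14859 genes tested called and 16.9% called lower. Among genes at 1 RPKM or more in a group 39.7% were called. The median of the 44 was -0.19, beside 0.00 over all genes tested. With RPKM rescaled to the same sum the median was -0.094, and with a pseudocount of 1 it was -0.12. On the scale of the RPKM columns 9 genes rose and 21 fell, EPSTI1 and IFI44L no longer passing. OASL fell most, with 5.32 RPKM with both against 8.29 with vitamin D (log2 -0.66 in the authors' deposited table, adjusted p = 5.63e-16). IRF7 (-0.52), IFIT1 (-0.52), ISG15 (-0.50), MX2 (-0.44), IFIT2 (-0.44), RSAD2 (-0.44), CMPK2 (-0.41), ISG20 (-0.33) and XAF1 (-0.32) followed, as log2 fold changes of the authors' deposited table. The other 13 that fell ranged from -0.18 to -0.30. The rises were IFIH1 (0.50), IRF1 (0.32), PARP14 (0.31), DDX60 (0.25), PARP9 (0.20), DTX3L (0.20) and TRIM22 (0.14) on the same scale. The call of TRIM22 was lost with p-values adjusted over all genes with a p-value.

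Whether IL-13 acted differently in the presence of vitamin D was tested as the difference between its effect with vitamin D (both over vitamin D) and without it (IL-13 over untreated), which share no sample. The difference was negative for 36 of the 44 genes, with a median of -0.15 beside 0.00 over all genes, of which 49.6% were negative. Only 3 genes passed the threshold, all negative, against 2.46% of all 14734 genes tested (1.43% higher and 1.03% lower). MX1 had a log2 fold change with IL-13 of -0.28 in the presence of vitamin D and -0.06 without it. The difference was -0.22 ± 0.06 (derived SE), with a 95% interval of -0.33 to -0.11 and an adjusted p of 0.00502 by the z test. For OAS3 the IL-13 effect was -0.29 with vitamin D and -0.07 without it, a difference of -0.21 ± 0.06 (SE derived from the authors' deposited tables; adjusted p = 0.00653, z test). For OAS1 it was -0.20 with vitamin D and 0.00 without it, a difference of -0.21 ± 0.06 (SE derived from the authors' deposited tables; adjusted p = 0.0481, z test).

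These 3 genes were called lower with IL-13 in the presence of vitamin D and were not called without it. The call of OAS1 was lost when p-values were adjusted over all genes with a p-value and on the scale of the RPKM columns; on that scale TRIM22 passed instead, with a positive difference, so that 2 genes were lower and 1 higher. IRF7 had a difference of -0.28 ± 0.09 (adjusted p = 0.0740) and TRIM22 one of 0.23 ± 0.07 (adjusted p = 0.0750), with SE derived from the authors' deposited tables, and both missed the threshold. At an unadjusted p under 0.05 there were 15 of the 44 genes, 14 of them negative, against 10.7% of all genes.

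**Figure D3:**
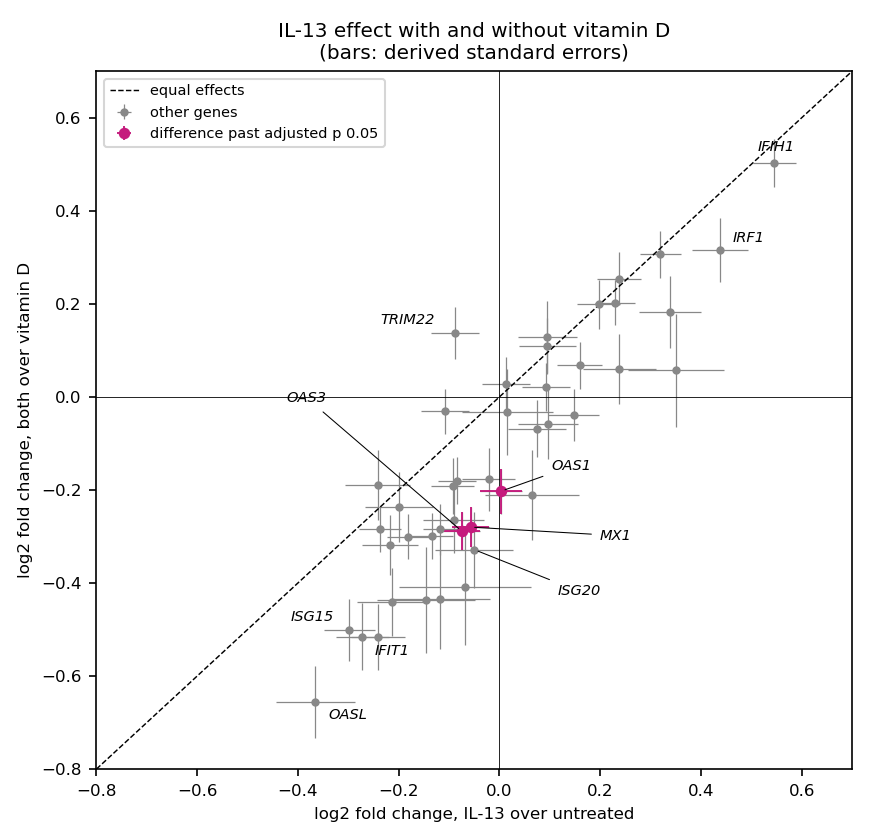
Log2 fold change of the 44 genes with IL-13 in the presence of vitamin D (vertical, both over vitamin D) and without it (horizontal, IL-13 over untreated); bars are standard errors derived from the deposited p-values and the dashed line marks equal effects. Of the 44 points 36 lie below the line, and MX1, OAS1 and OAS3 (coloured) are those whose difference passed an adjusted p of 0.05.

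A wider list of the interferon pathway was measured beside the 44, with 74 of its 79 symbols found in the tables. Of the interferons found, IFNA1, IFNA2, IFNB1 and IFNG were at or near 0. The type III interferons IFNL1, IFNL2 and IFNL3 were not among the symbols found, so their level is unknown. IFNA2 and IFNG were listed at 0 in every group, IFNA1 reached at most 0.0333 RPKM and IFNB1 at most 0.0354 RPKM. The epithelial interferons IFNK and IFNE stood at 0.258 and 0.497 RPKM with both and 0.794 and 0.718 untreated. The receptor genes IFNAR1 and IFNAR2 stood at 6.74 and 5.42 RPKM with both and 5.798 and 4.42 untreated, and each rose with both agents (log2 0.22 and 0.36 in the authors' deposited table).

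With both against untreated, 15 of the 68 tested genes of this list rose and 18 fell in the authors' deposited table. That is 48.5% of the list called, against 39.1% of genes at 1 RPKM or more in a group. SOCS1, an inhibitor of JAK kinases that acts as a brake on interferon signalling, had 18.4 RPKM with both, 15.7 with IL-13, 5.04 with vitamin D and 4.18 untreated. It was high in the 2 groups with IL-13, with a log2 fold change of 2.10 with both and 1.79 with IL-13 in the authors' deposited table (adjusted p = 2.74e-133 and 3.09e-94). IFNK fell by 1.13 on the log2 scale (0.258 RPKM with both, 0.794 untreated) and the chemokine CXCL10, which draws T cells, by 0.96 (1.84 RPKM with both, 3.73 untreated) in the authors' deposited table. NMI, which binds STAT proteins, rose by 0.78 in the authors' deposited table, with 12.2 RPKM with both against 6.999 untreated.

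With IL-13 alone 18 of the 67 tested genes of the list rose and 8 fell (38.8% called, against 31.9% of genes at 1 RPKM or more), SOCS1, NMI (0.67), the receptor transport protein RTP4 (0.65) and IRF5 (-0.63) changing most in the authors' deposited table. With vitamin D alone 11 rose and 16 fell (40.3% called, against 39.2%), CXCL10 (-0.71), CXCL11 (-0.59), the kinase IKBKE (-0.45) and the DNA sensor IFI16 (-0.36) changing most in the authors' deposited table. With both against vitamin D 18 rose and 7 fell (37.3% called, against 39.7%), SOCS1 (1.76), NMI (1.04), IFNK (-0.84) and IRF5 (-0.71) changing most in the authors' deposited table. With both against IL-13, by the derived test, 7 rose and 20 fell (40.3% called, against 28.0%), CXCL10 (-1.01), IFNK (-0.61), CXCL11 (-0.56) and NLRC5 (-0.48), a regulator of MHC class I genes, changing most. No gene of the list passed the test of the difference between the IL-13 effects.

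The peak lists show where the factors of the 2 treatments bound near these genes, with 1 library per condition and no replicate check. Scores and fold enrichment are the authors' values per peak, and coordinates are on hg19. STAT6 with IL-13 had a peak assigned by the authors to 1 of the 43 genes on assembled chromosomes (PSMB9 is placed on an alternative haplotype in the tables and was left out). Among genes at 1 RPKM or more in a group (expressed genes), the share with such a peak was 12.4%. In untreated cells 0 of the 43 had one, against 0.745% of expressed genes. The peak lay in an intron of ISG20 at chr15:89192198-89192856, 10599 bases after the start. Its fold enrichment was 10.4 and its -log10 q was 27.7, and no STAT6 peak overlapped it in untreated cells. H3K27ac summits overlapped it with fold enrichments of 3.19 with both, 4.63 with IL-13 and 4.59 untreated, and with none in vitamin D cells. ISG20 was not called with IL-13. Within 50 kb of a start, STAT6 summits lay near 4 genes (IRF7, ISG20, XAF1 and LGALS3BP), against 15.1% of expressed genes, and in untreated cells near 0, against 0.929%.

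VDR with vitamin D had a peak assigned to 8 of the 43 genes, against 31.8% of expressed genes, and in untreated cells to IRF1 and ISG20 only, against 9.19%. ISG20 held the strongest promoter peak, with a summit 737 bases after the start in chr15:89182209-89183166 (fold enrichment 10.3, -log10 q 27.5). An overlapping VDR peak was present in untreated cells with a fold enrichment of 9.94. At this peak H3K9ac reached a fold enrichment of 6.82 with both, 6.06 with IL-13, 11.6 with vitamin D and 8.64 untreated. H3K27ac there, not centred, was 10.2 with both, 7.94 with IL-13, 13.3 with vitamin D and 14.2 untreated. H3K4me3 was 17.4 with both, 13.8 with IL-13, 17.2 with vitamin D and 16.4 untreated. As listed, in 1 library per treatment, only H3K9ac was highest with vitamin D. None of these values was centred. Centred on the median of all promoters, the H3K9ac log2 ratio of vitamin D to untreated at ISG20 was 0.50. The 95th percentile of that ratio over all promoters was 0.58. Over all promoters the median H3K27ac log2 ratio to untreated was -0.48 with both, -0.50 with IL-13 and -0.32 with vitamin D. The order of vitamin D and untreated cells for H3K27ac at this peak therefore depends on centring. IFIT1 had an intronic VDR peak at chr10:91157587-91158202, 5642 bases after the start (fold enrichment 12.5, -log10 q 20.5). That peak was not found in untreated cells, and no summit of the 3 marks overlapped it in any treatment.

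The other VDR peaks with vitamin D were intergenic near LGALS3BP (fold enrichment 12.1), SAMD9 (9.002) and HERC6 (8.004), and at the promoters of SAMD9L (6.65), IRF1 (4.48) and DDX58 (3.52). The IRF1 peak overlapped one in untreated cells with a fold enrichment of 4.70, at a pileup of 12.4 with vitamin D and 8 untreated. Whole-number pileups made up 0.0955% of the VDR list with vitamin D and 100% of the untreated one. These pileups may therefore be on different scales and are not compared. The SAMD9 peak lay 213679 bases from its start, and the HERC6 peak at -58326, before its start. Of these 8 genes, ISG20 and HERC6 rose with vitamin D, IFIT1, IRF1, SAMD9 and SAMD9L fell, and DDX58 and LGALS3BP were not called. Within 50 kb of a start, VDR summits lay near 16 genes, against 44.1% of expressed genes, and in untreated cells near 6, against 12.2%.

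Histone marks at the starts of the genes were read from the highest summit within 2 kb. H3K4me3, a mark of active promoters, was found at 38 of the 43 genes with both, 35 with IL-13, 38 with vitamin D and 39 untreated, against 91%, 90.7%, 91.3% and 91% of expressed genes. Its median fold enrichment over the genes with a peak was 22.01 with both, 21.8 with IL-13, 25.5 with vitamin D and 19.9 untreated. Over expressed genes it was 47.5, 44.3, 49.7 and 45.2 in the same order, so the interferon genes carried the lower median in each of the 4 libraries. MX2, RSAD2, BST2 and IFI44L had no H3K4me3 summit in any treatment, although BST2 was at 23.7 to 27.9 RPKM.

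H3K27ac, a mark of active promoters and enhancers, was found at 39 genes with both, 35 with IL-13, 37 with vitamin D and 40 untreated, against 91.4%, 91%, 91.4% and 93.4% of expressed genes. Its median fold enrichment was 8.94 with both, 8.60 with IL-13, 11.0 with vitamin D and 11.7 untreated, and 12.8, 13.2, 14.4 and 18.4 over expressed genes in the same order. The untreated H3K27ac library had the highest background, 1.40 against 0.512 to 0.731 in the others, so ratios were centred on the median of all promoters. H3K9ac, another acetylation mark, was found at 29 genes with both, 31 with IL-13, 33 with vitamin D and 33 untreated, against 88.6%, 88.5%, 89.1% and 88.5% of expressed genes.

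After that centring, the median log2 ratio of fold enrichment against untreated was small for every mark. For H3K4me3 it was 0.02 with both, -0.04 with IL-13 and 0.00 with vitamin D. For H3K9ac it was -0.07, -0.15 and -0.08, and for H3K27ac -0.07, -0.04 and 0.01, in the same order of treatments. At IFIT1 H3K4me3 stood at 10.4 with both, 7.98 with IL-13, 9.81 with vitamin D and 8.91 untreated, while its RNA was lowest with both. H3K27ac was found at IFIT1 with both, IL-13 and untreated, and not with vitamin D. With both its fold enrichment was 3.19, the lowest of the genes with a peak. H3K9ac was found at IFIT1 with vitamin D only. At a -log10 q of at least 10, H3K9ac was left at only 1 to 4 genes per library. Each mark had 1 library per treatment, so presence or absence at IFIT1 cannot be read as a treatment difference. At ISG15 H3K4me3 stood at 16.2 with both, 22.5 with IL-13, 22.7 with vitamin D and 23.3 untreated, and H3K27ac, before centring, at 8.31, 8.60, 8.67 and 15.9 in the same order. Over all promoters the H3K27ac ratio to untreated had a median of -0.48 with both, -0.50 with IL-13 and -0.32 with vitamin D (log2). After centring, the ratio at ISG15 was -0.45, -0.38 and -0.56, against -0.93, -0.88 and -0.87 before it. At IFIH1, whose RNA was highest with IL-13, H3K4me3 stood at 45.8 with both, 38.5 with IL-13, 50.3 with vitamin D and 45.9 untreated.

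**Figure D4:**
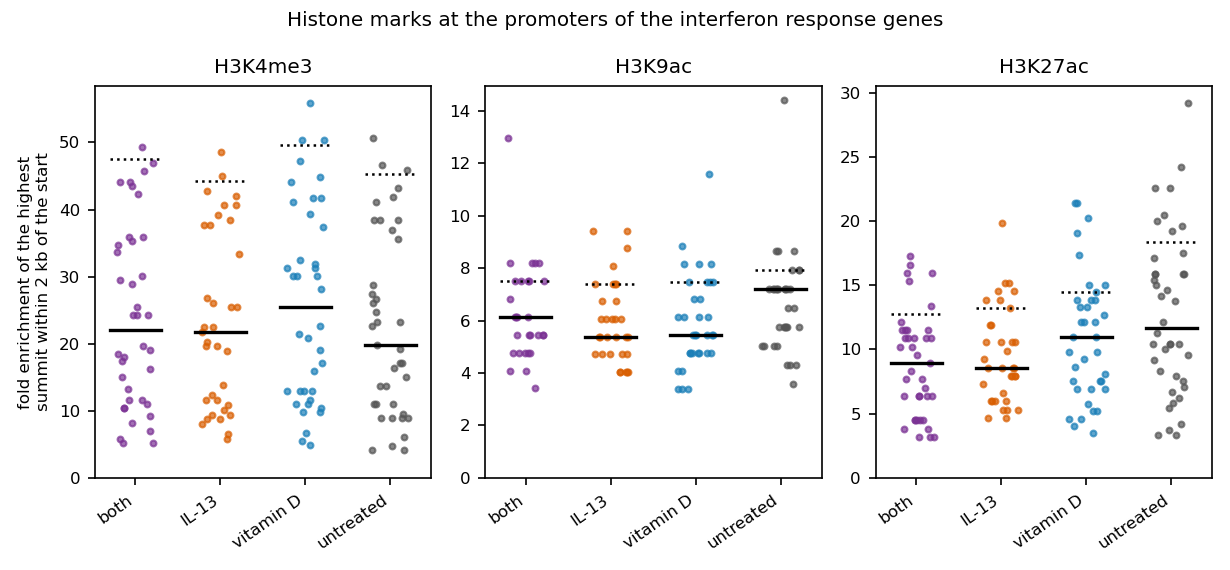
Fold enrichment of the highest summit within 2 kb of the start for each interferon response gene with a peak (points), in 1 library per mark and treatment; solid lines are medians of these genes and dotted lines medians of all expressed genes with a peak. The solid line is below the dotted line in all 12 libraries, most widely for H3K4me3 (19.9 against 45.2 in untreated cells).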

How the data were processed

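The RNA files are 4 tables with 1 RPKM value per group and the authors' log2 fold changes, p-values and adjusted p-values, per the file headers; the sources used here do not name the test behind them. The table named for IL-13 against both holds vitamin D against both, per the file headers. The submitters' processing notes list MACS2, Bowtie, STAR, SAMtools, Trim Galore and the builds hg19 and GRCh37, without versions or roles. Each ChIP library has a peak list with pileup (signal), fold enrichment (ratio) and -log10 q, deposited by the authors.

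Standard errors were derived from each fold change and p-value, and both against IL-13 and the difference of IL-13 effects were tested by z tests (Python 3.11.15, pandas 2.3.3, SciPy 1.17.1). The calculation was run on simulated data with normal errors of the derived sizes, which cannot show whether the derived standard errors are valid. Genes with an adjusted p of 1 counted as not tested, and 23 genes were left out of the derived tests because both against untreated differed by over 0.5 (log2) from the sum of vitamin D against untreated and both against vitamin D. Expressed genes are those at 1 RPKM or more in a group. The members and lists were chosen with earlier results of these data known. Named are the 12 largest calls per comparison, all calls in the rarer direction, each member with a STAT6 or VDR peak, and the 4 largest calls of the pathway list, 1 gene of which is not reported here; a few others were named after their values were seen.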

Additional observations from a re-analysis of the deposited data

Results flagged for a closer look

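The IL-13 effect differed with and without vitamin D, by a test of the difference itself, for 3 of the 44 genes, against 2.46% of all genes tested. MX1 had a difference of -0.22 (adjusted p = 0.00502), OAS3 one of -0.21 (adjusted p = 0.00653) and OAS1 one of -0.21 (adjusted p = 0.0481), each as log2, by z tests over 14734 genes on standard errors derived from the authors' deposited tables. All 3 were lower with IL-13 in the presence of vitamin D and not called without it. The call of OAS1 was lost with p-values adjusted over all genes with a p-value and on the scale of the RPKM columns, where TRIM22 passed and the split was 1 higher and 2 lower.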

How the results depend on the processing

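Under the alternatives run, no called gene changed direction, and each count of called genes stayed within 1.5 times the count reported. A threshold of 0.01 ended 17 calls and left 118. Adjusting over all genes with a p-value ended 3 (OASL with vitamin D, TRIM22 with both against vitamin D, OAS1 in the difference of effects). Taking the variance as the sum of 2 tables ended 4, IRF9, RSAD2, HERC5 and HERC6 with both against IL-13. Centring on the median of all genes added 1, LGALS3BP with vitamin D. On the scale of the RPKM columns, an alternative chosen after seeing the data, vitamin D gave 2 genes higher and 21 lower, against 6 and 19; over all comparisons it ended 7 calls, EPSTI1 and IFI44L with both against vitamin D among them, and added 7. Medians moved by over 0.05 in these cases, on the log2 scale. Vitamin D against untreated gave -0.10 from RPKM ratios with a pseudocount of 0.1, -0.091 with a pseudocount of 1 and -0.11 with RPKM rescaled to the same sum, against -0.04. Both against vitamin D gave -0.12 with a pseudocount of 1 and -0.094 with the same sum, against -0.19. Both against IL-13 gave -0.26 with a pseudocount of 0.1, against -0.20. The difference of the IL-13 effects gave -0.094 with the same sum, against -0.15. The cause of these shifts was not tested.

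With peaks of -log10 q of at least 10 only, H3K9ac was left at 1 gene with both, 3 with IL-13, 2 with vitamin D and 4 untreated, and H3K27ac at 21 with both, 20 with IL-13, 24 with vitamin D and 32 untreated. The same limit left VDR peaks assigned to 4 genes with vitamin D and 1 untreated. Summits within 50 kb in place of assigned peaks gave 4 genes for STAT6 with IL-13, 16 for VDR with vitamin D and 6 for VDR untreated. No paired analysis was possible because the RNA columns hold 1 value per group and carry no replicate numbers; for the same reason no sample could be left out. Read depth is unknown for RNA, and ChIP has 1 library per condition, so counts of peaks also depend on depth.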
